A study of Rattus norvegicus with 13 samples.

Results

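The peroxiredoxins and the thioredoxin system were followed through 9 genes in fat taken from 13 female Sprague Dawley rats, which are Prdx1 to Prdx6, the thioredoxin reductases Txnrd1 and Txnrd2, and the mitochondrial thioredoxin Txn2. They were found by symbol among the 14506 genes with a named probe, and the brightest probe stood for each gene; of the 9, only Prdx1 had a further probe. The fathers of 7 daughters ate standard chow with 9% fat and the fathers of 6 ate pellets with 43% fat, while all mothers ate chow. The fathers mated at 15 weeks, and all daughters were weaned onto chow at 3 weeks and gave their fat at 14 weeks, with 1 array per daughter. Per the series text, the high-fat fathers were heavier and glucose intolerant, and their daughters were glucose intolerant too, without a difference in weight or adiposity. The depot, the litters and the father of each daughter are not given in the labels, so the spread behind each p-value is that between these samples, and p may be too small if sisters were included. Daughters are called by the numbers in their labels, which run from 619 to 631 and from 656 to 664.

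Peroxiredoxins reduce hydrogen peroxide and lipid peroxides with a reactive cysteine. Most of them are then reduced by thioredoxin, which a thioredoxin reductase, a selenoprotein, restores with electrons from NADPH. The system is laid out by compartment. Prdx3, Txn2 and Txnrd2 form the chain of the mitochondrial matrix, Prdx1, Prdx2 and Txnrd1 work in the cytosol, Prdx6 is a mainly cytosolic enzyme that takes electrons from glutathione, Prdx4 resides in the endoplasmic reticulum, and Prdx5 is found in mitochondria, peroxisomes and cytosol. In mice, loss of Prdx3 is known to enlarge fat and impair glucose tolerance. In the comparisons, 3 genes counted as mitochondrial and 4 (Prdx1, Prdx2, Prdx6 and Txnrd1) as cytosolic, with Prdx4 and Prdx5 kept apart.

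The promoter windows, which span a RefSeq transcription start in build GRCr8, are shown for the 2 genes with the smallest p for paternal diet, Prdx3 and Prdx5, and for Prdx1 and Txnrd1, which are known targets of the antioxidant regulator Nrf2. Capitals mark TGACNNNGC, the core of the antioxidant response element, and GGGCGG, the GC box, on either strand.
Prdx3, chr1:270000062-270000361, minus strand: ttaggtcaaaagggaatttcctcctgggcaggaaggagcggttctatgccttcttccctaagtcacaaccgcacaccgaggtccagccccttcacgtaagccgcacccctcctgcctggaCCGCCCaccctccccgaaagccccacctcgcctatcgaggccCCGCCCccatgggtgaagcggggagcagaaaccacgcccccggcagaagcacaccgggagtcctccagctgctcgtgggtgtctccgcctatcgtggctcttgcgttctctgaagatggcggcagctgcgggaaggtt
Prdx5, chr1:213531978-213532277, minus strand: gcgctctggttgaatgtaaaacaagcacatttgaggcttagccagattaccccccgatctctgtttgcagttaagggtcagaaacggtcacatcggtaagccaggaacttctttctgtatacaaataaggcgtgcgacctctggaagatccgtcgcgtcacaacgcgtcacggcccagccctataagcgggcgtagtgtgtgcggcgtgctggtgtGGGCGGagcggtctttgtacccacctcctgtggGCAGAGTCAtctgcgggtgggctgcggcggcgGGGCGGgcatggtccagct
Prdx1, chr5:135383656-135383955, plus strand: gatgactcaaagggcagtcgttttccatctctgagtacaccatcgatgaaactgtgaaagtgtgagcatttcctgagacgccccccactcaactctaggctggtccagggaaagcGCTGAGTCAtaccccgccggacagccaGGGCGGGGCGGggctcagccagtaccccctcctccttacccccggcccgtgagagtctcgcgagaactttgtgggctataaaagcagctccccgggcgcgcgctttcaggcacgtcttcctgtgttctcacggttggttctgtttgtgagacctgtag
Txnrd1, chr7:22755855-22756154, minus strand: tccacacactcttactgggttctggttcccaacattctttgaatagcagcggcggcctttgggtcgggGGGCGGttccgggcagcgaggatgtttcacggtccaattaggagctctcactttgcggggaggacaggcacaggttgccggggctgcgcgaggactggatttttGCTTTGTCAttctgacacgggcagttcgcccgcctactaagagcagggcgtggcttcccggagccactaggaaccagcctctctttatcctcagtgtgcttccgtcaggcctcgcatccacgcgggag
The antioxidant response core was found in Prdx1 (first base at -135 from the start), Prdx4 (20), Prdx5 (-1) and Txnrd1 (-78). That is 4 of the 8 genes with a window and 4 of their 9 windows, against 12.1% of 33469 windows of the same length. The GC box was found in 8 of the 8 genes and in 8 of their 9 windows, against 33.1% of all windows. The ETS core CCGGAAG was found in Txn2 alone of the 8 (8.75% of all windows) and the NRF1 site in 0 of the 8 (4.25%). In Prdx1 the pair of GC boxes overlaps by a base. For Txnrd1, which has a window at each of 2 starts, the window shown is the one with matches, and Prdx6 has no entry in the table. A match describes the letters of the window and does not show that a factor binds.

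The fat read as adipose tissue, with a mean log2 level of the 9 measured adipocyte markers between 12.13 and 12.41 on all arrays. Other features of the arrays bear on these genes. Skeletal muscle markers (15 measured) stood at 11.62 in control 662, 11.48 in control 664, 11.42 in high-fat 629 and 9.08 in high-fat 619, and between 7.24 and 7.39 in the other 9 daughters. Brown fat markers (8 measured) stood at 8.99 in high-fat 629, 8.55 in high-fat 663, 8.52 in control 662 and 8.11 in control 658, and between 7.03 and 7.49 in the others. The spread of all values of an array, as its SD, was 1.78 in control 658, 1.86 in control 631 and high-fat 660, and 1.90 to 1.96 in the others. High-fat 619, 620, 624 and 629 (1.961, 1.957, 1.960 and 1.943) lay above every control, the highest of which was 622 at 1.942. High-fat 660 and 663 lay within the range of the controls, and the relation of array spread to paternal diet was not tested. Bright genes as a class also stood higher in the high-fat group. Among the 2902 brightest genes, which hold Prdx3, Txn2, Prdx1, Prdx2, Prdx6 and Prdx5, the median log2 difference was 0.08 and 86.4% had a higher mean.

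None of the 9 genes passed the test for paternal diet, and neither did any of the 14506 genes (0% called, limma, adjusted p under 0.05 over all genes). Levels of all 9 were slightly higher in daughters of high-fat fathers, by 0.01 to 0.20 log2 units, but 1 or 2 of these signs turned under other scalings (Prdx2 at -0.01 after renewed quantile normalization, Txnrd2 at -0.01 and Prdx4 at -0.03 with arrays centred on their medians). A higher mean was seen in 58% of all genes and in 84.4% of genes above the median level. The largest differences were those of Prdx3 (0.20), Prdx6 (0.17), Prdx5 (0.17) and Txn2 (0.14). At an unadjusted p under 0.05, 2 of the 9 were higher, Prdx3 and Prdx5, against 5.42% of all genes higher (7.96% in either direction) and 8.65% of the 2902 brightest genes. The groups overlapped for each of the 9, and did not overlap for 0.0827% of all genes.

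**Figure D1:**
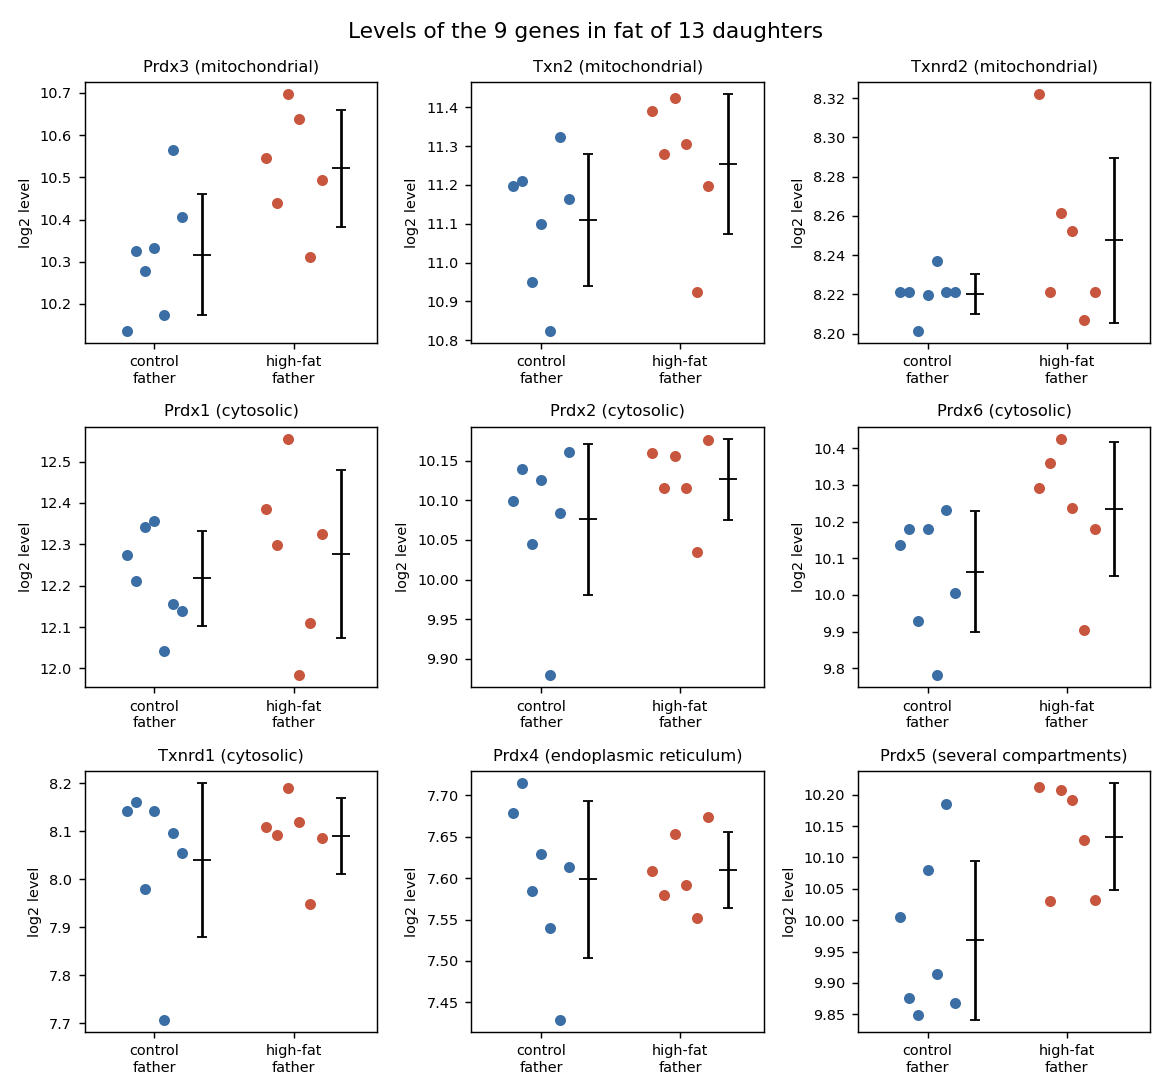
Log2 level of each of the 9 genes (vertical axis, its own range in each panel, not starting at 0) in daughters of control fathers (blue, n = 7) and high-fat fathers (red, n = 6), 1 point per daughter in the order of sample numbers, with the group mean and SD in black. The groups overlap in every panel, and the lowest point of Prdx2, Prdx6 and Txnrd1 is control 658.

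Among the mitochondrial genes, Prdx3, the peroxidase of the matrix, read 10.14, 10.32, 10.28, 10.33, 10.17, 10.56 and 10.41 in controls 622, 627, 631, 656, 658, 662 and 664. In high-fat daughters 619, 620, 624, 629, 660 and 663 it read 10.55, 10.44, 10.70, 10.64, 10.31 and 10.49. Thus 5 of 6 high-fat daughters lay above the control mean, 2 of them (624 and 629) lay above every control, and high-fat 660 lay among the controls. Controls averaged 10.32 ± 0.14 (SD, n = 7), and the high-fat daughters 10.52 ± 0.14 (SD, n = 6). The difference was 0.20 ± 0.08 (SE, 95% interval 0.04 to 0.37), or 1.15-fold, with an unadjusted p of 0.0202 and an adjusted p of 0.53 in limma. The highest controls were 662 and 664, the control arrays with skeletal muscle signal, and without the 4 arrays with most of that signal the difference was 0.24 ± 0.09 (unadjusted p = 0.0232). In a bulk piece of fat, more cells rich in the transcript and more transcript per cell cannot be told apart.

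Txn2, the thioredoxin that reduces Prdx3, read 11.20, 11.21, 10.95, 11.10, 10.82, 11.32 and 11.16 in the controls and 11.39, 11.28, 11.42, 11.31, 10.92 and 11.20 in the high-fat daughters, in the same order. High-fat 619 and 624 lay above every control and high-fat 660 was below 6 of the 7. The difference was 0.14 ± 0.09 (SE), with an unadjusted p of 0.144 and an adjusted p of 0.53. The lowest values were those of control 658, high-fat 660 and control 631, the arrays with the smallest spread, and with array spread as a covariate the difference was 0.00 ± 0.06.

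Txnrd2, the reductase that restores Txn2, read 8.22 in controls 622, 627, 656, 662 and 664, 8.20 in 631 and 8.24 in 658. The high-fat daughters read 8.32, 8.22, 8.26, 8.25, 8.21 and 8.22. The difference was 0.03 ± 0.04 (SE, 95% interval -0.06 to 0.11; adjusted p = 0.73). For this gene 6 of the 13 arrays (controls 622, 627, 662 and 664, high-fat 620 and 663) carried the same value to every deposited digit, which happened in 65 of 14506 genes (0.448%), so its SD of 0.01 in controls gives little idea of the spread between animals.

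Of the cytosolic peroxidases, Prdx1, the abundant Nrf2-inducible form, read 12.27, 12.21, 12.34, 12.36, 12.04, 12.16 and 12.14 in controls and 12.39, 12.30, 12.56, 11.98, 12.11 and 12.32 in high-fat daughters. The high-fat group held both the highest value (624) and the lowest (629). The difference was 0.06 ± 0.09 (SE, 95% interval -0.13 to 0.24; adjusted p = 0.75), and the dimmer Prdx1 probe gave a difference of 0.06 too. Without high-fat 624 it was 0.00, and without high-fat 629 it was 0.12.

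Prdx2, which is also a major protein of red cells, read 10.10, 10.14, 10.04, 10.13, 9.88, 10.08 and 10.16 in controls and 10.16, 10.12, 10.16, 10.12, 10.03 and 10.18 in high-fat daughters. Apart from control 658 at 9.88, the groups covered nearly the same range. The difference was 0.05 ± 0.05 (SE; adjusted p = 0.64), and 0.02 without control 658. The erythroid list (10 measured) averaged 8.26 ± 0.34 over controls (SD, n = 7) and 8.39 ± 0.32 over high-fat daughters (SD, n = 6), with the globin gene Hbb at 12.28 and 12.58. With the erythroid level as a covariate, the Prdx2 difference was 0.05 ± 0.06. The list and its averages include Tmod4, which is mainly a muscle gene, and without Tmod4 in the covariate the Prdx2 difference was 0.06 ± 0.06.

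Prdx6, which also has phospholipase activity, read 10.14, 10.18, 9.93, 10.18, 9.78, 10.23 and 10.0046 in controls and 10.29, 10.36, 10.43, 10.24, 9.91 and 10.18 in high-fat daughters. Of the high-fat daughters, 4 of 6 lay above every control, the most of any of the 9 genes, and high-fat 660 lay below 6 controls. The difference was 0.17 ± 0.09 (SE, 95% interval -0.03 to 0.37; unadjusted p = 0.0855; adjusted p = 0.53), 0.12 without control 658, 0.24 without high-fat 660 and 0.03 ± 0.05 with array spread as a covariate. Txnrd1, the cytosolic reductase, read 8.14, 8.16, 7.98, 8.14, 7.71, 8.10 and 8.05 in controls and 8.11, 8.09, 8.19, 8.12, 7.95 and 8.09 in high-fat daughters. Its difference was 0.05 ± 0.07 (SE; adjusted p = 0.74), and -0.01 without control 658, whose 7.71 was the lowest value.

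Prdx4, the form of the endoplasmic reticulum that helps to oxidise newly made proteins, ranged from 7.43 to 7.71 in controls (median 7.61) and from 7.55 to 7.67 in high-fat daughters (median 7.60). Its difference was 0.01 ± 0.05 (SE, 95% interval -0.10 to 0.12; adjusted p = 0.93), the smallest of the 9.

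Prdx5, the form of several compartments, read 10.0045, 9.88, 9.85, 10.08, 9.91, 10.18 and 9.87 in controls and 10.21, 10.03, 10.21, 10.19, 10.13 and 10.03 in high-fat daughters. All 6 high-fat daughters lay above the control mean of 9.97 ± 0.13 (SD, n = 7), against a mean of 10.13 ± 0.09 (SD, n = 6), and 3 of them lay above every control. Control 662, with both muscle and brown fat signal, was the highest control at 10.18. The difference was 0.17 ± 0.06 (SE, 95% interval 0.03 to 0.30), with an unadjusted p of 0.0224 and an adjusted p of 0.53. Without the 4 arrays with most muscle signal it was 0.15 ± 0.08 (unadjusted p = 0.067).

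**Figure D2:**
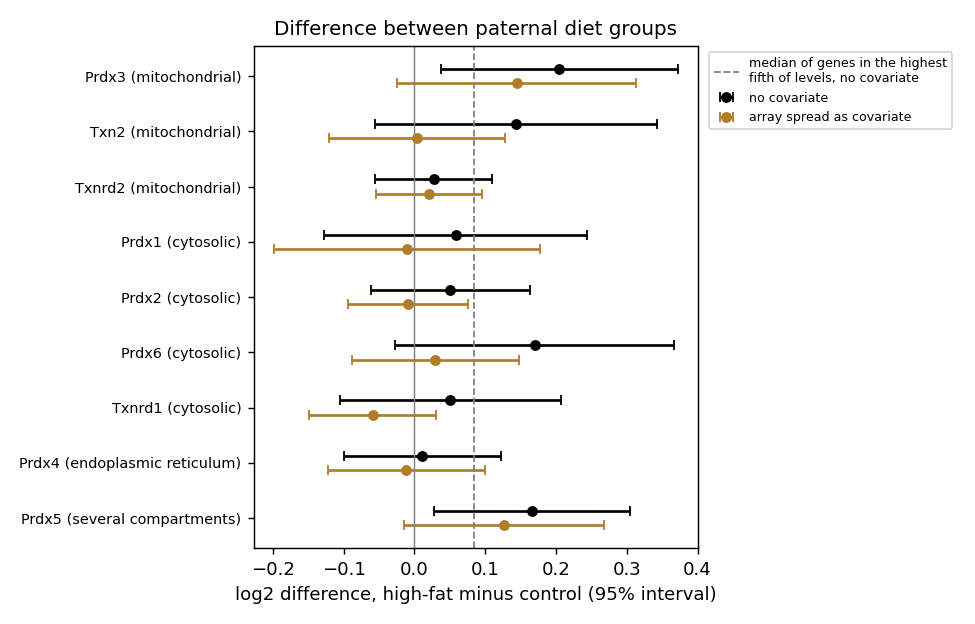
Log2 difference between daughters of high-fat and control fathers (horizontal axis) with its 95% interval for each gene, without a covariate (black) and with array spread as a covariate (brown); the dashed line is the median of the 2902 brightest genes. With the covariate the differences of Prdx1, Prdx2, Txnrd1 and Prdx4 lie below 0 and every interval includes 0.

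With the SD of all values of each array as a covariate, Prdx3 differed by 0.14 ± 0.08 (unadjusted p = 0.0871) and Prdx5 by 0.13 ± 0.07 (unadjusted p = 0.0752). These were the largest of the 9 differences in that fit. Since high-fat 619, 620, 624 and 629 had a larger spread than every control, diet and array spread cannot be fully told apart in it. The number of the 9 with a higher mean fell from 9 to 5, while that of all 14506 genes fell from 8419 to 7505. In that fit 0 of the 9 had an unadjusted p under 0.05 (2.81% of all genes), nor did any pass after adjustment. Prdx1 (-0.01), Prdx2 (-0.01), Txnrd1 (-0.06) and Prdx4 (-0.01) then lay below 0.

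Mitochondrial and cytosolic genes were also set against each other. As a deviation from the control mean of each gene, the mitochondrial genes of high-fat daughters averaged 0.13 ± 0.11 (SD, n = 6) and their cytosolic genes 0.08 ± 0.11 (SD, n = 6), with SDs of 0.09 and 0.12 in the 7 controls. The mitochondrial minus cytosolic value ran from -0.10 to 0.11 in controls and from -0.02 to 0.17 in high-fat daughters. The groups thus overlapped, and only high-fat 629 (0.17), an array with muscle and brown fat signal, lay above every control. The groups differed by 0.04 in this value, less than its SD of 0.09 in controls and 0.07 in high-fat daughters, and by 0.05 with Prdx5 counted as mitochondrial. Within the ranges of sample numbers, the high-fat minus control difference in this value was 0.12 in daughters 619 to 631 and -0.03 in daughters 656 to 664. No test was made of this value, since the genes were chosen with results known. The spread within each compartment was wider than the gap between them, as Txnrd2 (0.03) lay far below Prdx3 (0.20), and Prdx6 (0.17) far above Prdx2 (0.05).

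**Figure D3:**
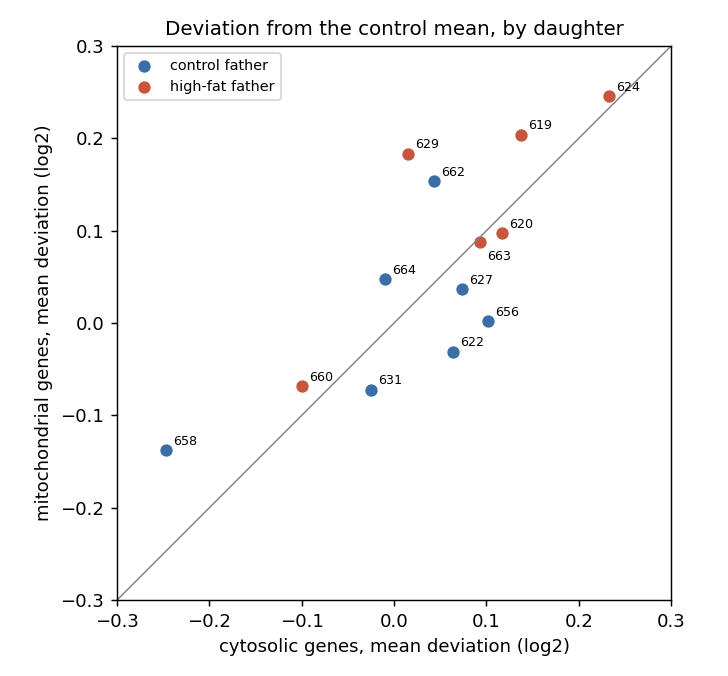
Mean deviation from the control mean, in log2 units, of the mitochondrial genes Prdx3, Txn2 and Txnrd2 (vertical axis) and the cytosolic genes Prdx1, Prdx2, Prdx6 and Txnrd1 (horizontal axis), 1 point per daughter with its number; the line marks equal deviation. Control 658 and high-fat 660 lie low on both axes, high-fat 624 lies high on both, and high-fat 629 stands farthest above the line.

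The comparison was also made within each of the 2 runs of sample numbers, whose meaning the labels do not give, and a test of the difference between the runs passed for none of the 9. Among daughters 619 to 631, 3 control and 4 high-fat, Prdx3 differed by 0.33 ± 0.09, Prdx5 by 0.25 ± 0.08, Prdx6 by 0.25 ± 0.09 and Txn2 by 0.23 ± 0.09 (SE). These 4 of the 9 had an unadjusted p under 0.05, all with a higher mean, and none passed after adjustment (adjusted p of 0.28 to 0.32 in limma). Of all 14506 genes in that fit, 13.7% had such a p in either direction, 879 with a higher and 1111 with a lower mean. Among daughters 656 to 664, 4 control and 2 high-fat, the same genes differed by 0.03 ± 0.13, 0.07 ± 0.12, -0.01 ± 0.16 and -0.04 ± 0.16, and 0 of the 9 had such a p (0.931% of all genes). A higher mean was found for 8 of the 9 in the first range (all but Prdx4), against 55.9% of all genes, and for 6 of the 9 in the second (all but Txn2, Txnrd2 and Prdx6), against 58.5%. Prdx1, Prdx2 and Txnrd1 differed by 0.02 to 0.04 in both ranges. In a test of the difference between the ranges itself, Prdx3 had the smallest p of the 9 (second minus first range -0.30 ± 0.15, unadjusted p = 0.0716, adjusted p = 0.9985 in limma), and 0% of genes passed, with 3.47% at an unadjusted p under 0.05. Among the 4 arrays with most muscle signal, both controls (662 and 664) fell in the second range and both high-fat daughters (619 and 629) in the first, and the part of this in the values by range was not tested.

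**Figure D4:**
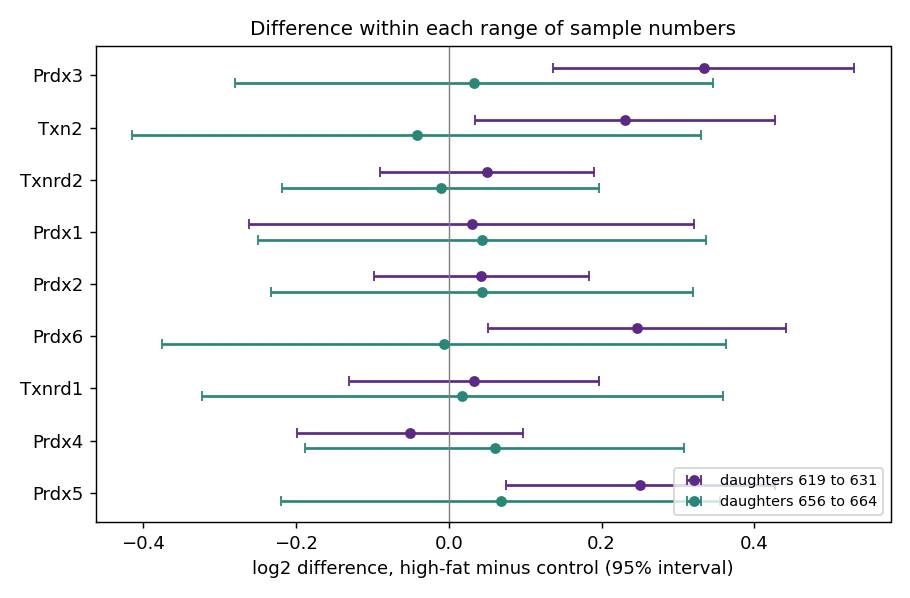
Log2 difference between daughters of high-fat and control fathers (horizontal axis) with its 95% interval, for daughters 619 to 631 (purple, 3 control and 4 high-fat) and 656 to 664 (green, 4 control and 2 high-fat). The intervals of Prdx3, Txn2, Prdx6 and Prdx5 lie above 0 in the first range, and every interval of the second range includes 0.

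Across the 13 daughters, after the mean of each group was taken out, the genes mostly varied together. Of 36 pairs, 34 had a positive Pearson r, with a median of 0.44, and 6 passed a permutation test with Benjamini-Hochberg adjustment over the 36 (9 at an unadjusted p under 0.05). The same counts for pairs of other genes were not computed, so these cannot be called particular to the 9 genes. By Spearman's rho 0 passed, with a smallest adjusted p of 0.0673 and 6 pairs at an unadjusted p under 0.05. The closest pair crossed the compartments: Txn2 and Prdx6 had an r of 0.92 (permutation p = 0.0002, adjusted 0.0036) and a rho of 0.79 (permutation p = 0.00406, adjusted 0.0673), with an r of 0.77 without high-fat 660 and control 658, the 2 arrays farthest from the median. Prdx2 and Txnrd1 had an r of 0.90 (permutation p = 0.00381, adjusted 0.0343) and a rho of 0.57 (permutation p = 0.0587, adjusted 0.249), and an r of 0.45 without the same arrays, on which much of that relation rested. Prdx6 and Txnrd1 had an r of 0.86 (permutation p = 0.00017, adjusted 0.0036) and a rho of 0.74 (permutation p = 0.00431, adjusted 0.0673), and 0.75 without those arrays.

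Within the mitochondrial chain, Prdx3 and Txn2 had an r of 0.72 (permutation p = 0.00825, adjusted 0.0495) and a rho of 0.71 (permutation p = 0.0115, adjusted 0.0831), and 0.53 without control 662 and high-fat 660. Txn2 also passed with Txnrd1 (r 0.83, permutation p = 0.00081, adjusted 0.00972; rho 0.73, permutation p = 0.00561, adjusted 0.0673) and with Prdx2 (r 0.74, permutation p = 0.00591, adjusted 0.0426; rho 0.49, permutation p = 0.104, adjusted 0.249). Without control 658 and high-fat 660 these fell to 0.61 and 0.24, so the relation of Txn2 and Prdx2 rested on those arrays. The 6 pairs had an r of 0.65 to 0.97 without the 4 arrays with most muscle signal. Prdx1, Prdx4, Prdx5 and Txnrd2 passed with no other gene.

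Much of this common variation went with the spread of the arrays. Of the 9 relations with array SD, 4 passed a permutation test with adjustment over the 9, and 0 of the 4 passed by rho. Array SD comes from the same arrays, and the share of all genes that would pass was not computed. The count therefore cannot be called particular to these genes. Txnrd1 had an r of 0.93 with array SD (permutation p = 0.00059, adjusted 0.00261; rho 0.71, permutation p = 0.0105, adjusted 0.0803). Prdx6 had an r of 0.89 (permutation p = 0.00039, adjusted 0.00261; rho 0.68, permutation p = 0.0178, adjusted 0.0803). Txn2 had an r of 0.87 (permutation p = 0.00087, adjusted 0.00261; rho 0.64, permutation p = 0.0292, adjusted 0.0875) and Prdx2 an r of 0.84 (permutation p = 0.00714, adjusted 0.0161; rho 0.43, permutation p = 0.176, adjusted 0.264). Without control 658 and high-fat 660 these became 0.71, 0.70, 0.65 and 0.25. For Prdx3 the r was 0.46 (permutation p = 0.133, adjusted 0.2; rho 0.32, permutation p = 0.298, adjusted 0.336), and -0.04 without those 2 arrays. With array SD taken out, the median r of the 36 pairs was 0.15. Of the 6 pairs that had passed, Prdx3 and Txn2 then had an r of 0.74, Txn2 and Prdx6 0.66, and Prdx2 and Txnrd1 0.61. Prdx6 and Txnrd1 had an r of 0.21, Txn2 and Txnrd1 0.09, and Txn2 and Prdx2 0.05.

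**Figure D5:**
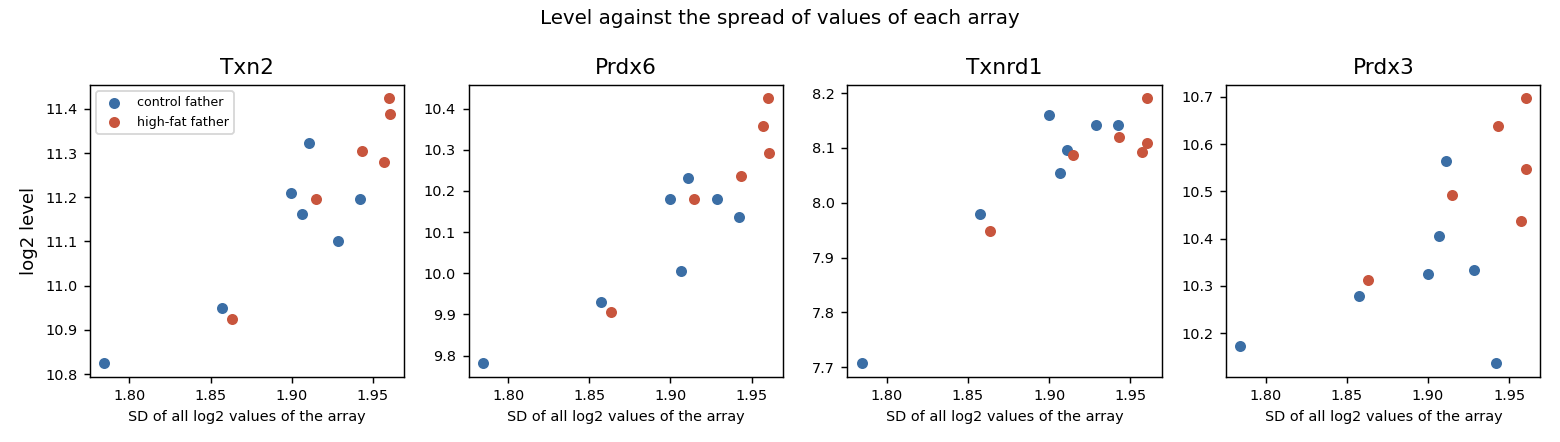
Log2 level of Txn2, Prdx6, Txnrd1 and Prdx3 (vertical axis, its own range in each panel, not starting at 0) against the SD of all log2 values of the array (horizontal axis), 1 point per daughter, blue for control and red for high-fat fathers. Txn2, Prdx6 and Txnrd1 are low on the arrays of smallest spread, and Prdx3 follows the spread less closely (r of 0.46 against 0.87 to 0.93).

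By the same centred values, the gene most like Prdx3 among all genes with a name was Park7 (r 0.94), which encodes the redox-sensitive protein DJ-1, followed by Ndufb5 (0.92), a subunit of respiratory complex I, and Sdhaf3 (0.90), an assembly factor of complex II. Txn2 was most like Atp5po (0.97), a subunit of the ATP synthase, followed by Scrn3 and Rbl2 (0.96 each). The genes most like the others were Rmnd1, Eif2b5 and Polk for Prdx6 (0.94 to 0.97), Ngly1, Rpp14 and Atg16l1 for Txnrd1 (0.96 to 0.97), Ipo4, Selenos and Ndufa1 for Prdx2 (0.95 to 0.96), and Slc35b4, Rmdn3 and Eid1 for Prdx1 (0.94 to 0.95). For Prdx5 they were Igbp1, Zfp667 and Zfp879 (0.85 to 0.90), for Prdx4 Rps13, Gmds and Cyp2r1 (0.86 to 0.90), and for Txnrd2 Zfp189, Car6 and Krt17 (0.87 each). These are the highest of 14506 values on 13 arrays each, leaving out bare locus numbers, and are given as a description. Array SD was not taken out of them, and its part in these r values was not tested.

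None of the measured genes around the system passed the test, and their counts below stand against a higher mean in 58% of all genes and 84.4% of genes above the median level, and against an unadjusted p under 0.05 with a higher mean in 5.42% of all genes. Counts with array spread as a covariate stand against 7505 of 14506 genes with a higher mean in that fit. Of 16 measured thioredoxin partners, 14 had a higher mean, with a median difference of 0.08. The median was 0.05 without control 658, and 0.02 with 11 of 16 higher when array spread was a covariate. Glrx5, a mitochondrial glutaredoxin of iron-sulfur cluster assembly, differed by 0.16 ± 0.08, Glrx3 by 0.17 ± 0.10, Txndc17 by 0.13 ± 0.08 and Sesn1, a stress-induced sestrin, by 0.16 ± 0.11 (SE; adjusted p of 0.53 each). Named for their role, with their values known, were cytosolic thioredoxin Txn1 (13.58 in controls, 13.61 in high-fat daughters, difference 0.03 ± 0.04), its inhibitor Txnip (13.55, 13.61, 0.06 ± 0.04) and sulfiredoxin Srxn1, which repairs overoxidised peroxiredoxins (7.84, 7.85, 0.01 ± 0.05), with adjusted p of 0.78, 0.55 and 0.97. Srxn1 read 7.71 to 7.92 in controls and 7.66 to 7.95 in high-fat daughters, so that the high-fat daughters spanned the range of the controls.

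Of the 9 other peroxide and superoxide enzymes 6 had a higher mean, with a median of 0.06, or 0.02 with array spread as a covariate. Gpx4, the peroxidase of membrane lipids, differed by 0.15 ± 0.08, extracellular Sod3 by 0.11 ± 0.06, catalase (Cat) by 0.06 ± 0.06, and Gpx1, the main cytosolic glutathione peroxidase, by -0.07 ± 0.05. For Gpx1, 0 of 6 high-fat daughters lay above the control mean. The 11 genes of NADPH supply had a median of 0.07, 6 higher and 5 lower, a median of -0.03 with array spread as a covariate, and a median of -0.01 without control 627 or without high-fat 629. Among them were cytosolic isocitrate dehydrogenase Idh1 (0.22 ± 0.12), Aldh1l1 (0.21 ± 0.13), the mitochondrial kinase Nadk2 (0.15 ± 0.09) and the folate enzyme Mthfd2 (-0.16 ± 0.09). Each of these had an adjusted p of 0.53, apart from Cat at 0.64.

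Of 11 genes of selenoprotein synthesis and other selenoproteins, which share the selenocysteine machinery with the reductases, 10 had a higher mean, with a median of 0.08. Sephs1 (0.14 ± 0.06) and Trnau1ap (0.17 ± 0.08) had an unadjusted p under 0.05. With array spread as a covariate 5 of 11 had a higher mean, the median was -0.0037 and 0 had such a p. Of 14 genes of the Nrf2 axis 11 had a higher mean, with a median of 0.10. That median was 0.02 without control 658, and 0.04 with 8 of 14 higher when array spread was a covariate. Glutathione reductase Gsr (0.23 ± 0.10) and the Nrf2 inhibitor Keap1 (0.15 ± 0.07) had an unadjusted p under 0.05, while Gclm (0.22 ± 0.10) and Gsta4 (0.35 ± 0.20) did not, and all 4 had an adjusted p of 0.53.

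Housekeeping genes of mitochondria were followed as well, and 0 of the 21 measured passed. All 21 had a higher mean, with a median of 0.14, or 0.07 with 19 of 21 higher when array spread was a covariate, and 6 had an unadjusted p under 0.05. In daughters 619 to 631 the median was 0.24, with 21 of 21 higher and 12 at such a p. Of all genes in that fit, 55.9% were higher and 13.7% had such a p in either direction. In daughters 656 to 664 the median was 0.02, with 12 of 21 higher and 0 at such a p, against 58.5% and 0.931% of all genes. The smallest p were those of the matrix protease Lonp1 (0.23 ± 0.07), prohibitin Phb1 (0.17 ± 0.06), the fusion protein Opa1 (0.25 ± 0.09) and citrate synthase Cs (0.18 ± 0.08), each with an adjusted p of 0.53. The list averaged 9.93 ± 0.09 (SD, n = 7) over controls, against 10.07 ± 0.13 (SD, n = 6) over high-fat daughters.

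Markers of cells that a piece of fat can hold had 0 genes past the test. At an unadjusted p under 0.05 there were 4 of 9 adipocyte markers with a higher mean, Fabp4 (0.20 ± 0.06), Lipe (0.16 ± 0.05), Plin1 (0.18 ± 0.06) and Cfd (0.23 ± 0.11), and their part in the values of Prdx3 and Prdx5 was not tested. Of all genes 5.42% were higher at such a p, and 8.65% of the 2902 brightest. With array spread as a covariate, 8 of the 9 adipocyte markers were higher, 3 of them at such a p, with a median of 0.14. Without a covariate, Elovl3 of the brown fat list and Cd3d of the T cell list had a lower mean with such a p, as did 369 of all 14506 genes. The median differences were 0.10 for adipocytes (8 of 9 higher), 0.10 for brown fat (5 of 8), 0.12 for erythroid cells (7 of 10), 0.09 for endothelium (5 of 5), 0.04 for macrophages (5 of 9) and 0.03 for B cells (2 of 2), and those of macrophages (-0.0011) and B cells (-0.0043) fell just below 0 with arrays centred on their medians. They were -0.13 for skeletal muscle (1 of 15 higher), -0.16 for T cells (0 of 8), -0.35 for mesothelium (0 of 4) and -0.03 for fibroblasts (2 of 6). Leaving out a single array turned the sign of some of these medians. That of skeletal muscle was 0.41 without control 662, 0.39 without control 664, and 0.11 to 0.14 without high-fat 620, 624, 660 or 663. That of brown fat was -0.07 without high-fat 629 and -0.06 without high-fat 663, and that of B cells -0.01 without high-fat 660. That of macrophages was -0.03 without high-fat 629 or control 658, and -0.01 without control 627 or control 664. The T cell median was -0.0056, with 4 of 8 higher, without the 4 arrays with most muscle signal. Without those arrays the fibroblast median was 0.08, with 4 of 6 higher, and that of macrophages -0.02, with 4 of 9 higher. By number range, first and then second, the medians were 0.05 and -0.67 for mesothelium and 1.70 and -2.21 for skeletal muscle. They were 0.36 and -0.08 for brown fat, -0.10 and 0.17 for fibroblasts, and -0.06 and 0.09 for macrophages.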

How the data were processed

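Total RNA from fat was labelled with biotin and hybridised to Affymetrix arrays, 1 per daughter. RMA and Partek are named in the submitters' processing notes, without versions. The deposited log2 values of 29214 probes run from 3.24 to 14.54, with array medians of 7.66 to 7.72, and background per probe was not assessed, since no scanner files were used here. Precision is limited by how many arrays there are. Of the probes, 15310 have 1 symbol in the platform annotation and 13581 are not listed. No symbol needed updating against the GRCr8 gene table. The brightest probe of each symbol left 14506 genes, without any filter on low levels.

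The paternal diets were compared by limma 3.58.1 (lmFit and eBayes, R 4.3.3). Its two-sided p-values were adjusted by the Benjamini-Hochberg method over the 14506 genes, and the fit was tested on simulated data. A positive log2 difference means higher in daughters of high-fat fathers. Correlations used values centred within groups and 100000 permutations within groups. The named genes are the 9, up to 4 of smallest p from each list, and the 3 most alike by r, leaving out bare locus numbers. The 6 pathway and 10 marker lists, the members and the alternatives were chosen with earlier results of these data known, so their counts are descriptions. Array spread as a covariate, and the erythroid list without Tmod4, were added after seeing the data.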

Additional observations from a re-analysis of the deposited data

Results flagged for a closer look

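In each group the highest and the lowest daughter were tested for standing apart (Dixon's test), over 20 sets of values, of which chance flags about 1 in 20. Control 658 was flagged for 2 genes. Its Prdx2 level was 9.88, against 10.04 to 10.16 in the other 6 controls, and its Txnrd1 level was 7.71, against 7.98 to 8.16. The same array had the smallest spread of values (SD 1.78) and brown fat markers at 8.11, and the part of either in these levels was not tested. None of the 9 passed the test of a difference between the ranges of sample numbers.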

How the results depend on the processing

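No gene passed under any of the settings run, nor at an adjusted p of 0.1. Of 268 values of the 9 differences under other settings, 252 kept their sign and 16 reversed. The reversed values were -0.01 for Prdx2 with renewed quantile normalization, -0.012 for Txnrd2 and -0.028 for Prdx4 with arrays centred on their medians, and -0.0024 for Prdx4 with the number range as a covariate. They were -0.051 for Prdx4 in daughters 619 to 631, and -0.042 for Txn2, -0.011 for Txnrd2 and -0.0061 for Prdx6 in daughters 656 to 664. For Prdx4 they were also -0.015 without the 4 arrays with most muscle signal, -0.017 without control 662 and -0.0014 without high-fat 663, and for Txnrd1 -0.0050 without control 658. With arrays left out in turn, Txnrd1 thus ran from -0.0050 to 0.079 and Prdx4 from -0.017 to 0.031. With array spread as a covariate they were -0.010 for Prdx1, -0.0092 for Prdx2, -0.011 for Prdx4 and -0.059 for Txnrd1. The number of the 9 with a higher mean was 8 or 9 when arrays were left out in turn and 5 with array spread as a covariate. In the fit with that covariate, 7505 of all 14506 genes had a higher mean.

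Of the 9, 2 had an unadjusted p under 0.05. This became 0 with renewed quantile normalization, with array spread as a covariate and in daughters 656 to 664, 1 (Prdx3) without the 4 muscle arrays, 4 in daughters 619 to 631, and 1 to 4 when arrays were left out in turn (1 without high-fat 619, 4 without high-fat 660). Over all genes, 1155 had such a p. The number was 661 among genes above the median level, 2092 over all probes, 2179 with array weights, 611 with the number range as a covariate, 1990 and 135 in the first and second range, 550 without the 4 muscle arrays, 407 with array spread and 2642 with the erythroid level without Tmod4 as covariates, and 508 (without high-fat 624) to 2508 (without high-fat 660) with arrays left out. The mitochondrial minus cytosolic difference was 0.12 in daughters 619 to 631, -0.031 in daughters 656 to 664, and 0.02 (without high-fat 629) to 0.06 (without control 662) with arrays left out. Some settings hold fewer genes or samples, and the cause of these changes was not tested. No paired analysis was possible because the groups share no sample numbers.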
